A study of Mus musculus with 2 samples.

Results

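The 500 regions described here are stretches of chromatin that were more accessible in beta1 and beta2 tanycytes than in alpha1 and alpha2 tanycytes, in each of 2 libraries. They were taken from 107377 regions in all, or 0.466% of them, and carry only row numbers. In each library the level of a region in a cell type was its number of detections per 1000000 detections of that type, where 1 detection stands for 1 region seen as accessible in 1 cell. On the scale log2(level + 5), the higher of the alpha levels was subtracted from the lower of the beta levels, and the smaller result of the 2 libraries was the score. The 500 highest scores are the members. Beta and alpha values of both libraries therefore chose the members. Differences below between or within beta and alpha tanycytes, and between the libraries in these subtypes, are descriptions with no test.

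Tanycytes are radial glia-like cells whose bodies line the third ventricle of the hypothalamus and whose long processes reach into its tissue. Beta tanycytes line the floor of the ventricle, with beta2 cells over the median eminence, where they contact portal capillaries and help form the barrier between blood and cerebrospinal fluid, and beta1 cells beside and above them. Alpha tanycytes lie further dorsally along the wall, alpha2 below alpha1, and are the subtypes best known for glial progenitor traits. Open regions mark promoters and enhancers that transcription factors can reach. NFIA, NFIB and NFIX belong to the nuclear factor I family, which promotes glial differentiation.

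One library was made from GFP-positive cells of P8 mice that were Rax-CreER with loxP-flanked Nfia, Nfib and Nfix (lox/lox for each) and CAG-lsl-Sun1-GFP, labelled KO and called deficient here. The other came from P8 control mice with Rax-CreER and CAG-lsl-Sun1-GFP only. In both groups the inducible CreER under Rax, a gene of tanycytes, switches on a nuclear GFP that stays in their progeny. The sort therefore limits which cells could enter. Cells came from the mediobasal hypothalamus, and the sources used here do not say how many animals were pooled.

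The deficient library held 13337 cells with a median of 4042 detections, and the control library 8948 cells with a median of 4549.5. Each genotype had 1 library, so no test between genotypes was possible and differences compare these 2 libraries. Intervals are exact 95% intervals that cover counting error only. They treat detections as independent and are too narrow where cells of a type differ. The libraries shared 204 cell barcodes, of which 43 had the same type in both. The authors' cell types were used as deposited. They could not be checked against marker genes, because the regions carry no gene names, and neither could the deletion of Nfia, Nfib and Nfix.

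These regions are labelled as closed in alpha tanycytes, but the rule asks only for a lower level there and sets no limit for closed. The median member had 18.6 detections per 1000000 in deficient and 19.5 in control beta2 cells, and 11.9 in deficient and 14.2 in control beta1 cells. It had 5.50 in deficient and 7.0 in control alpha2 cells, and 4.42 in deficient and 5.20 in control alpha1 cells. The median of all 107377 regions was 4.45 in deficient and 4.23 in control alpha2 cells, so that 297 and 392 members were above the typical region there. In alpha1 cells 247 members were above the median region in the deficient and 278 in the control library. In alpha1 cells of the deficient library the median member was at the same level as the median region, 4.42.

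Scores ran from 0.44 to 1.04 with a median of 0.53, and region 92739 was the only member with a score of 1 or more. A score of 1 is a 2-fold gap in level + 5, which asks for more than 2-fold in the level itself. Region 73022, for example, scored 0.997 with levels of 28.6 in control beta1 and 11.8 in control alpha2 cells. Region 92739 was detected in 100 of 1003 deficient and 134 of 904 control beta2 cells, and in 163 of 2448 deficient and 145 of 1558 control beta1 cells. It was found in 138 of 4902 deficient and 200 of 4306 control alpha2 cells, and in 12 of 669 deficient and 7 of 473 control alpha1 cells. Its share of cells thus ran from 9.97% and 14.8% in beta2 to 1.79% and 1.48% in alpha1. Region 73022 followed, at 18.9% of deficient and 24.9% of control beta2 cells and 9.31% and 13.4% of beta1 cells, against 3.79% and 7.78% of alpha2 cells. Region 102210, the next, was in 15.7% of deficient and 13.8% of control beta2 cells, against 3.90% and 5.25% of alpha2 cells. The last member, region 66873, and the first region outside, region 102875, both had a score of 0.44. They differed in level, with 10.8 detections per 1000000 in deficient and 13.8 in control beta2 cells for region 66873, and 34.5 and 31.7 for region 102875.

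The members were mostly more widespread than the typical region. They were found in 234 to 3987 cells of the 22285, with a median of 911.5, against 81 to 18294 and a median of 496 for all regions. Of the members, 426 lay above the median of all regions, 173 above its upper quartile of 1132 cells, and 4 below its lower quartile of 274. None was among the near-universal regions, since the most widespread member was found in 3987 cells. The rule asks for high beta levels and a gap to alpha cells, which works against both very sparse and near-universal regions. These counts are therefore partly set by the choice, and how far was not tested.

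As a set, the members took the largest share of detections in beta2 cells. They made up 10.3 of every 1000 detections in deficient (interval 10.2 to 10.4) and 11.0 in control beta2 cells (10.9 to 11.1). In beta1 cells they made up 7.03 (6.98 to 7.08) in the deficient and 8.25 (8.19 to 8.32) in the control library. The shares in alpha2 cells were 3.42 and 4.24, and in alpha1 cells 2.98 and 3.36. The set was thus 3.03-fold higher in beta2 than in alpha2 cells of the deficient library and 2.60-fold higher in the control library. For beta1 over alpha2 cells the folds were 2.06 and 1.95.

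**Figure D1:**
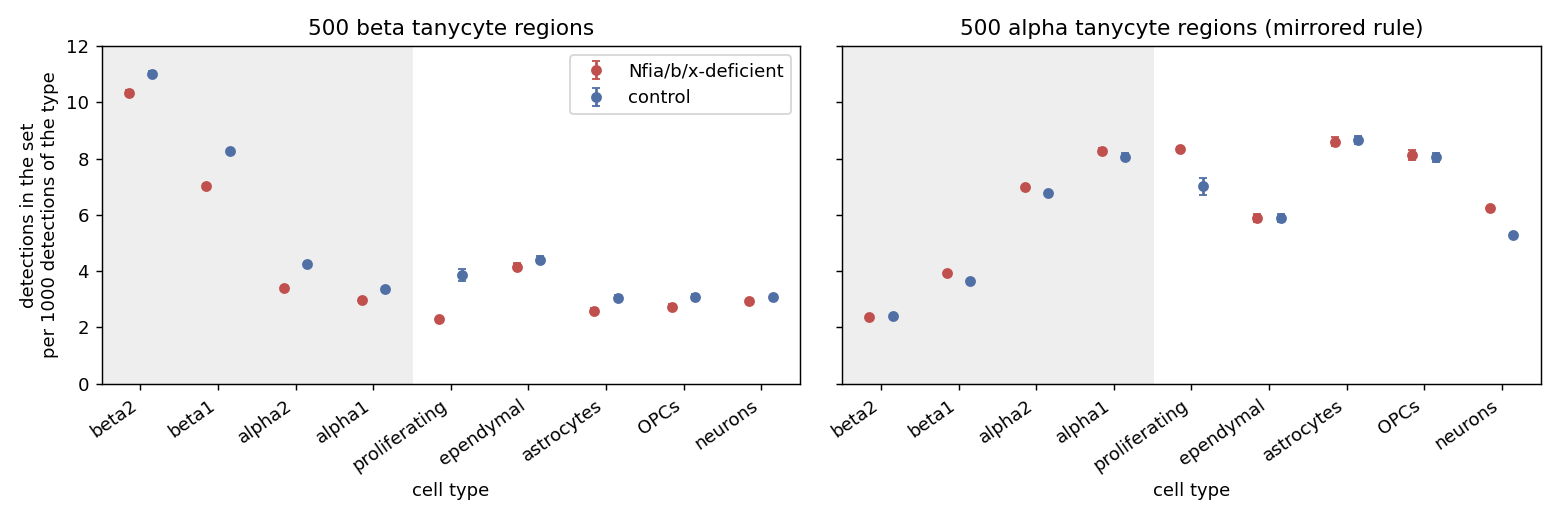
Detections in a region set per 1000 detections of each cell type (y axis) for deficient and control libraries, with exact 95% counting intervals; the left panel shows the 500 beta tanycyte regions and the right panel 500 alpha tanycyte regions chosen by the mirrored rule. The shaded types chose the regions; outside them, ependymal cells had the highest share of beta regions, at 4.16 in the deficient and 4.41 in the control library.

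When regions were chosen in 1 library alone, the other library gave values that the choice had not used. The cell types there are also the authors', and the sources used here do not say how they were named. Whether the types were themselves named from accessibility, which would build in part of the gap, was not tested. Of 500 regions with the largest gap between beta and alpha tanycytes in the control library, 490 had a gap above 0 in the deficient library, against 20.0% of all regions. The median gap was 0.49 in the deficient library, 0.64 in the control library where they were chosen, and -0.19 over all regions of the deficient library. Of 500 regions chosen in the deficient library, 485 had a gap above 0 in the control library, against 19.2% of all regions, with a median gap of 0.51. A 2-fold gap was rarer: 14 of the 500 regions chosen in the control library had a 2-fold gap in the deficient library, and 3 of the 500 chosen in the deficient library had one in the control library. Those counts compare with 16 and 3 such regions among all 107377 (0.0149% and 0.00279%). Both counts depend on the pseudocount: with 1 in place of 5 they were 117 and 99 of 500, among 288 and 218 of all regions. The choices of the 2 libraries shared 209 regions, or 41.8% of each list.

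Within the beta class, the members were mostly more open in beta2 than in beta1 cells. The rule did not ask for this order, but it used the same beta levels, and the background regions were not chosen by it. The shares are therefore descriptions, and how far the choice sets them was not tested. The level was higher in beta2 cells for 454 members in the deficient library (background over all regions 47.0%) and 404 in the control library (background 47.1%), and for 387 of 500 (77.4%) in both, against 34.1% of all regions. Members higher in beta1 cells in both libraries numbered 29 (5.80%), against 40.0% of all regions. The median difference of beta2 minus beta1 was 0.39 in the deficient library and 0.28 in the control library on the log2(level + 5) scale, where the median of all regions was -0.02 in each. Most differences were modest. By 2-fold or more in both libraries, 6 members were higher in beta2 cells (background 0.319%) and 0 in beta1 cells (background 0.429%), and no test stands behind either count. With a pseudocount of 1 in place of 5 the count for beta2 was 28, and in cells thinned to 2000 detections it was 18.

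Region 42973 led the members that leaned to beta2. It was detected in 172 of 1003 deficient and 175 of 904 control beta2 cells (17.1% and 19.4%), and in 115 of 2448 deficient and 103 of 1558 control beta1 cells (4.70% and 6.61%). The beta2 and beta1 intervals did not overlap in either library. Region 22204 followed, at 22.2% of deficient and 20.0% of control beta2 cells, against 7.19% and 7.0% of beta1 cells. Region 53271 was found in 15.6% and 17.9% of beta2 cells, against 5.31% and 6.16% of beta1 cells. The other members past 2-fold were regions 89103, 8123 and 22903, named after their values were seen. In the opposite direction, region 48839 was in 4.99% of deficient and 7.30% of control beta2 cells, against 8.54% and 12.9% of beta1 cells. Regions 30938 and 91415 came next, at 4.99% and 5.88% of deficient beta2 cells against 7.56% and 6.66% of deficient beta1 cells. In the control library they were in 7.41% and 6.42% of beta2 cells against 8.92% and 8.47% of beta1 cells. The beta2 and beta1 intervals overlapped in the control library for both regions, and in the deficient library for region 91415.

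**Figure D2:**
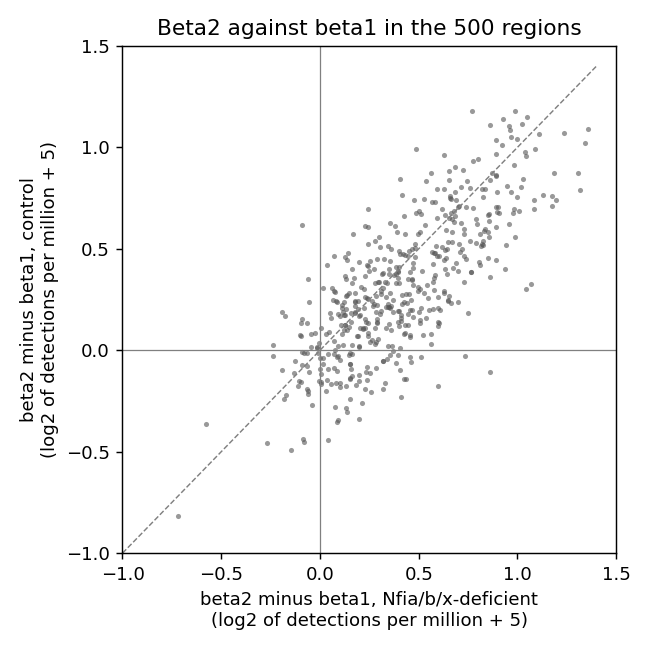
Each point is 1 of the 500 regions, with its beta2 minus beta1 difference in the deficient library (x axis) and in the control library (y axis), both as log2 of detections per 1000000 plus 5; the dashed line marks equal differences. Most points lie in the upper right, where 387 regions were higher in beta2 cells in both libraries.

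The differences between beta2 and beta1 cells followed a like order in both libraries. Across the 500 members, which are not independent replicates, Pearson's r between the libraries was 0.761 and Spearman's rho 0.743. Over all 107377 regions they were 0.755 and 0.691, so the members were not set apart by this. The points share the depth of each library and type.

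The alpha subtypes differed in a matching direction. The level was higher in alpha2 cells for 357 members in the deficient library (background 55.2%) and for 416 in the control library (background 57.7%). Members were higher in alpha2 than in alpha1 cells in both libraries for 312 of 500 (62.4%), against 38.6% of all regions, and lower in both for 39 (7.80%), against 25.7%. The median difference of alpha2 minus alpha1 was 0.11 in the deficient and 0.21 in the control library, against 0.03 and 0.05 over all regions. Alpha1 levels rest on few cells: the median member was detected in 13 of 669 deficient and 12 of 473 control alpha1 cells. Both orders together, beta2 above beta1 and alpha2 above alpha1 in both libraries, were found for 250 members, against 15.2% of all regions. The order of beta above alpha cells was fixed by the rule, so only the order within each pair is described here. The levels compared within each pair also chose the members, so these shares are not independent of the choice. In cells thinned to equal depth (below), alpha2 and alpha1 cells had the same median.

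Outside the types that chose the regions, the members were most open in ependymal cells, which carry cilia and also line the ventricle. They took 4.16 of every 1000 detections in deficient (interval 4.05 to 4.27) and 4.41 in control ependymal cells (4.28 to 4.55). Neurons had 2.94 in the deficient and 3.08 in the control library, OPCs (oligodendrocyte precursor cells) 2.74 and 3.08, and astrocytes 2.60 and 3.06. These 3 types were close to alpha1 tanycytes, at 2.98 and 3.36. Proliferating tanycytes had 2.30 (2.26 to 2.34) in the deficient library, the lowest share of any type and library, and 3.86 (3.65 to 4.08) in the control library, where the class holds 63 cells. In control beta2 cells the set was 2.50-fold higher than in control ependymal cells and 3.60-fold higher than in control astrocytes.

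Few single members were as open in other types as in beta tanycytes. A member was counted as open in another type when its level there was at or above the lower of its beta levels in both libraries. This held for 24 members (4.80%), against 81.6% of all regions, and 367 (73.4%) were below the lower beta level in all 5 other types of both libraries, against 3.81%. Since the rule asks for high beta levels, these shares are partly set by the choice and nothing is read from their size. By type, the count was 11 for ependymal cells (background 45.4%), 9 for OPCs (42.0%), 5 for neurons (51.9%), 1 for astrocytes (46.8%) and 0 for proliferating tanycytes (36.7%). The 5 in neurons were regions 84663, 81808, 79750, 23095 and 94855, and the 1 in astrocytes, region 9513, was also among those in OPCs. These were named after their values were seen. At or below the higher of their alpha levels in both libraries were 366 members in neurons (background 50.8%), 337 in OPCs (48.8%), 329 in astrocytes (44.0%), 291 in proliferating tanycytes (43.8%) and 149 in ependymal cells (41.0%). In all 5 types at once this held for 44 members (8.80%, background 7.87%). In ependymal cells the median member was detected in 8 of 265 deficient and 7 of 133 control cells, so most levels there are imprecise. Among 63 control proliferating cells 89 members had no detection, which by a limit of 3 counts allows up to 4.76% of cells with a detection of each.

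Region 26214 stood out in OPCs. It was detected in 53 of 274 deficient and 44 of 304 control OPCs (19.3% and 14.5%), and in 79 of 1003 deficient and 77 of 904 control beta2 cells (7.88% and 8.52%). In alpha2 cells it was at 4.26% and 4.88%. OPCs had a higher share of cells with the region than each alpha and beta subtype in both libraries, by intervals that did not overlap. In control proliferating tanycytes it was in 3 of 63 cells, and that interval (0.993 to 13.3%) overlapped the one of control OPCs (10.7 to 18.9%). Region 27358 had similar shares in OPCs (15.7% and 15.1%) and in beta2 cells (18.4% and 21.1%). Region 14841 was the highest in ependymal cells, at 68 of 265 deficient and 43 of 133 control cells (25.7% and 32.3%), near its shares in beta2 cells (22.2% and 27.4%). Region 73365 followed, at 15.8% and 24.1% of ependymal cells.

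In neurons the leading members were region 26431, in 383 of 2520 deficient and 126 of 882 control neurons (15.2% and 14.3%), and region 45858, in 10.2% and 12.1%. Both were found in a larger share of beta2 cells, at 24.0% and 25.9% for region 26431 and 22.5% and 21.6% for region 45858. In astrocytes they were region 104319, in 11.7% of deficient and 12.3% of control cells, and region 27054, in 17.0% and 10.2%. In proliferating tanycytes region 65847 was in 119 of 1033 deficient and 12 of 63 control cells (11.5% and 19.0%) and region 91819 in 11.1% and 14.3%. These members were broadly open. Region 91819, for example, was also found in 16.5% of deficient and 22.9% of control alpha2 cells.

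Cells of each type were compared at equal depth by thinning each to 2000 detections and leaving out shallower cells (88 deficient and 40 control beta2 cells, 315 and 145 beta1 cells). The median deficient beta2 cell had 22 members among its 2000 detections and the median control beta2 cell 23. Beta1 cells had medians of 13 in the deficient and 16 in the control library, with quartiles of 9 and 18, and of 11 and 22. Alpha2 and alpha1 cells had a median of 6 in each library. Ependymal cells had 8 and 7, neurons 5 and 4, OPCs and astrocytes both 4 and 5, and proliferating tanycytes 4 in 968 deficient cells and 7 in 51 control cells. Unthinned, the median cell had 10.9 and 11.6 members per 1000 detections in beta2 cells, 6.78 and 8.11 in beta1 cells, and 2.80 and 2.99 in alpha2 cells.

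Beta1 cells lay between alpha and beta2 cells and overlapped both. Their 5th to 95th percentiles were 5 to 26 members per cell in the deficient and 6 to 30 in the control library, against 10 to 32 and 12 to 34 in beta2 cells and 1 to 15 and 1 to 18 in alpha2 cells. The median of the library's own beta1 cells was reached by 90.7% of deficient and 86.9% of control beta2 cells. It was reached by 9.71% of deficient (interval 8.86 to 10.6%) and 7.81% of control alpha2 cells (7.0 to 8.69%). Of alpha1 cells 5.51% and 2.73% reached it, and of proliferating tanycytes 1.96% in the deficient library and 2 of 51 cells in the control library. The labels do not state how doublets were treated. In the alpha tanycyte regions of the mirrored rule (below), beta1 cells had a median of 7 of them per cell in each library. Beta2 cells had 3 and alpha2 cells 14. That rule asked for beta levels below alpha levels, so only the order of beta1 and beta2 was not asked for.

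**Figure D3:**
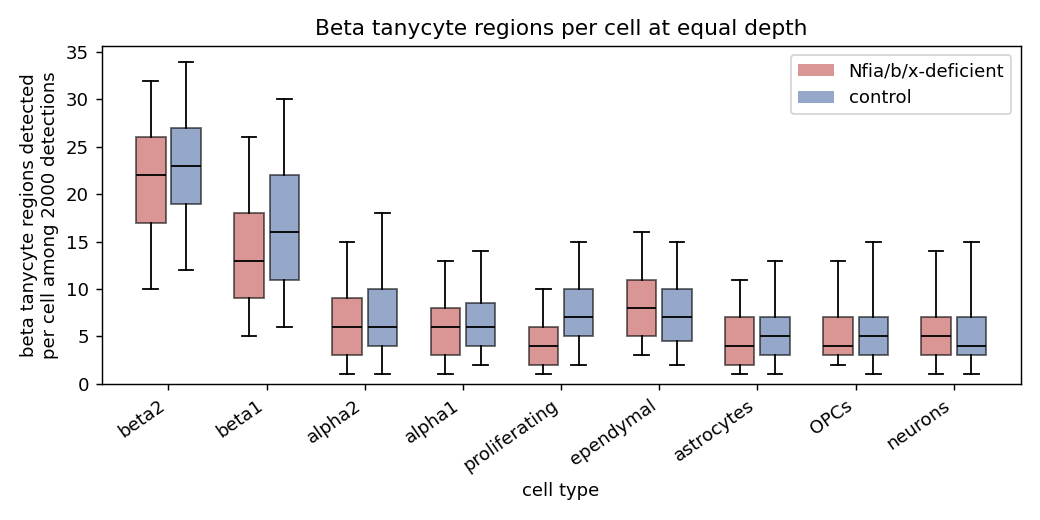
Number of the 500 beta tanycyte regions found per cell among 2000 randomly kept detections (y axis), by type, in deficient and control libraries; boxes give quartiles and median, whiskers the 5th and 95th percentiles of cells. Beta2 cells had medians of 22 and 23 and beta1 cells 13 and 16, while the other types had medians of 4 to 8.

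Beta tanycytes of the deficient library had a slightly lower share of these regions than those of the control library, and the gap was wider in beta1 than in beta2 cells. The log2 ratio of deficient over control was -0.23 (interval -0.25 to -0.22) in beta1 cells and -0.09 (-0.11 to -0.07) in beta2 cells. At equal depth the ratios were -0.24 and -0.11, on means of 14.2 members per cell in deficient and 16.8 in control beta1 cells, and 21.4 and 23.1 in beta2 cells. Whether the difference between beta1 and beta2 exceeds that between animals cannot be said from 1 library per genotype. On single regions, 377 of 500 members were below 0 in beta1 cells (75.4%), against 45.0% of all regions measured there, and 292 of 499 in beta2 cells (58.5%), against 48.9%. A region counted as measured in a type with at least 50 detections there over both libraries, which all but 1 member reached in both beta subtypes. Their median difference of deficient minus control was -0.14 in beta1 and -0.05 in beta2 cells, against 0.03 and 0.01 over all regions measured. The same beta values chose the members but not the background regions. How much of the distance to the background comes from the choice was not tested.

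Few members differed by 2-fold in level + 5, the scale of all 2-fold counts between the libraries. It asks for more than 2-fold in the level itself. In beta1 cells 3 were lower by 2-fold or more in the deficient library (0.600% of members, background 0.37%) and 0 were higher (background 0.051%). In beta2 cells 2 of 499 measured were lower (background 0.749%) and 0 higher (background 0.0779%). Both shares of lower members are near the background, so nothing is read from them. Split into 3 groups of 167, 167 and 166 by their lean, the members had like ratios. In beta1 cells these were -0.21 for those leaning most to beta2, -0.24 for the middle and -0.24 for those leaning least to beta2. In beta2 cells they were -0.08, -0.12 and -0.08.

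Region 93870 was the lowest member in the beta cells of the deficient library, at a pooled difference of -1.04. It was detected in 77 of 1003 deficient and 196 of 904 control beta2 cells (7.68% and 21.7%) and in 193 of 2448 deficient and 346 of 1558 control beta1 cells (7.88% and 22.2%). Its level was 17.0 detections per 1000000 in deficient and 39.9 in control beta2 cells, a level that is taken per detection and not per cell. It was also lower in each other type: 4.63% and 14.4% of alpha2 cells, 2.24% and 7.61% of alpha1 cells, 2.26% and 8.39% of neurons, 4.15% and 15.8% of ependymal cells, and 1.45% and 11.1% of proliferating tanycytes. In astrocytes (2.69% and 4.92%) and OPCs (3.65% and 5.92%) the intervals of the 2 libraries overlapped. Shares of cells, unlike levels, are not scaled for depth, and the median cell had fewer detections in the deficient library. In alpha2 cells the level of region 93870 was 8.71 in the deficient and 21.8 in the control library. Region 7963 was in 5.98% of deficient and 14.4% of control beta2 cells and in 2.82% and 9.95% of beta1 cells. Region 49791 was in 13.1% and 24.2% of beta2 cells and in 3.43% and 11.1% of beta1 cells. In both regions alpha2 cells shared the direction, at 1.55% and 6.80% for region 7963 and 2.26% and 8.59% for region 49791. So did every other type, such as neurons, at 0.714% and 3.74% for region 7963 and 1.39% and 2.95% for region 49791. In alpha1 cells, among others, the intervals of the 2 libraries overlapped for both regions. The other member lower by 2-fold in beta2 cells was region 71032, in 20 of 1003 deficient and 81 of 904 control cells, named after its values were seen.

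The members with the highest ratios stayed under 2-fold. Region 55457 had a pooled difference of 0.49, with 93 of 1003 deficient and 62 of 904 control beta2 cells (9.27% and 6.86%) and 188 of 2448 deficient and 92 of 1558 control beta1 cells (7.68% and 5.91%). Region 76508 was in 11.0% and 8.19% of beta2 cells and 7.15% and 5.39% of beta1 cells. Region 24524 was in 8.67% and 6.97% of beta2 cells and 8.05% and 6.68% of beta1 cells. The 3 were also higher in alpha2 cells, by 0.46, 0.39 and 0.42.

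**Figure D4:**
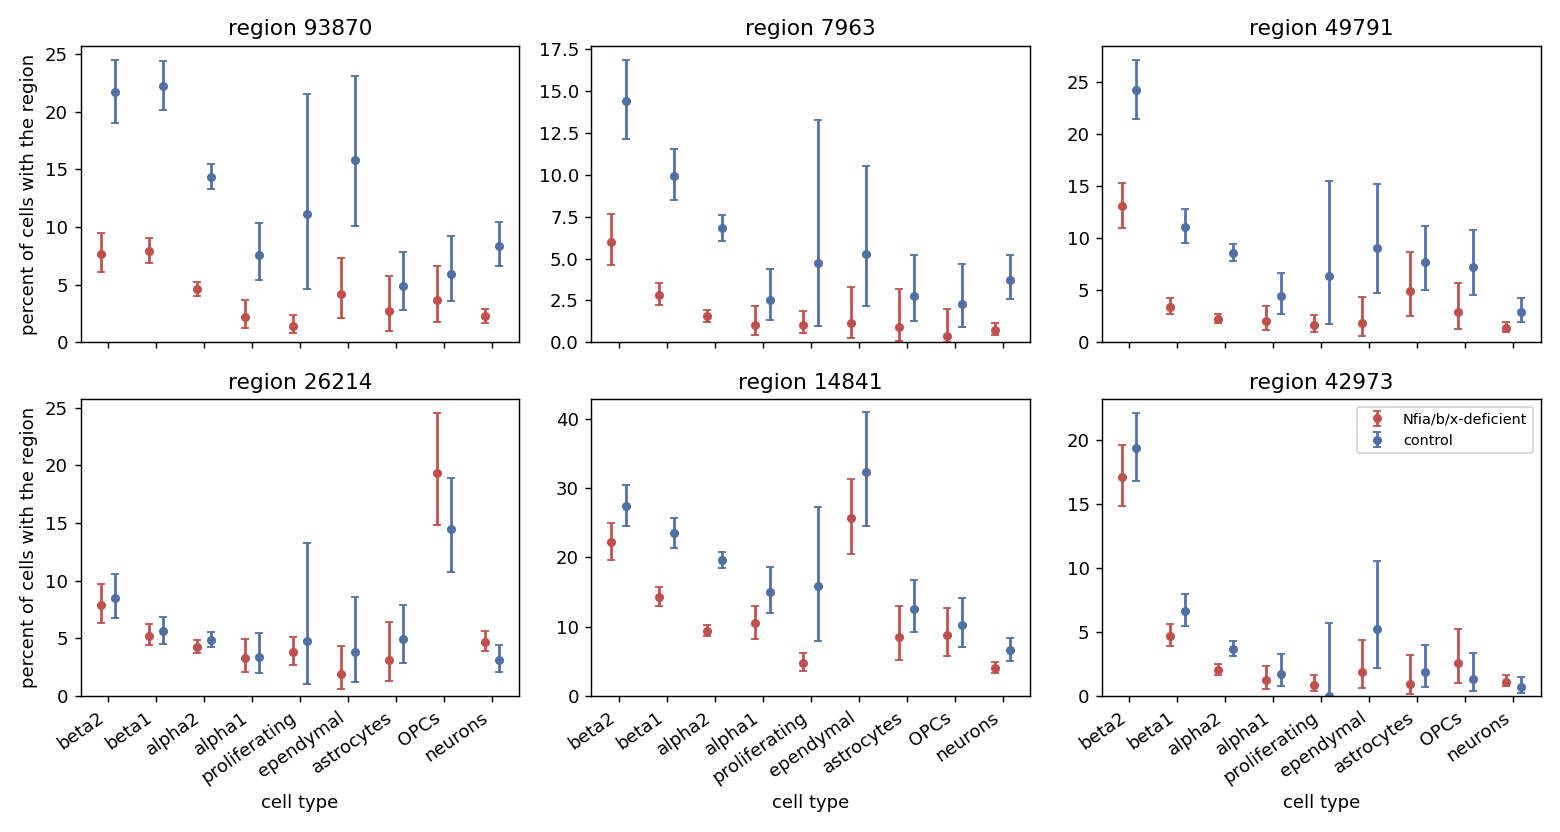
Percent of cells with each of 6 member regions (y axis), by type, in deficient and control libraries, with exact 95% intervals. The upper row holds the 3 members lowest in deficient beta cells, which were lower in every cell type, with overlapping intervals in some. Below are region 26214, highest in OPCs (19.3% and 14.5%), region 14841, highest in ependymal cells, and region 42973, which leaned to beta2.

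In the types outside beta tanycytes the set was lower in the deficient library too, but depth moved with several of these values. The log2 ratios were -0.31 in alpha2, -0.17 in alpha1, -0.23 in astrocytes, -0.17 in OPCs, -0.09 in ependymal cells and -0.07 in neurons. At equal depth alpha2 cells had -0.15, alpha1 cells -0.15, astrocytes -0.21 and OPCs -0.07. Ependymal cells then had 0.07 and neurons 0.05, so their direction turned. In alpha2 cells 395 of 500 members were below 0 (79.0%, background 41.6%), and 185 (37.0%) were below 0 in all 4 subtypes, against 16.3% of all regions. By 2-fold in level + 5, 0 members were lower and 0 higher in alpha2 cells (backgrounds 0.506% and 0.0445%). Such a count can miss a larger fall in the level itself. In alpha2 cells region 7963, for example, had 2.92 detections per 1000000 in the deficient and 10.3 in the control library. In alpha1 cells 66 of 97 measured members were below 0 (68.0%, background 50.4%). There 1 was lower by 2-fold (1.03%, background 1.6%), which was region 93870, and 0 were higher (background 0.406%). Alpha and beta values chose the members, so the shares in these subtypes are not independent of the choice.

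Few members could be measured in the other types. Below 0 were 8 of 19 in ependymal cells (background 54.7%), 12 of 18 in astrocytes (background 54.5%) and 7 of 12 in OPCs (background 51.1%). By 2-fold, 0 were lower in these types (backgrounds 0.108%, 0.178% and 0.398%) and 0 higher (backgrounds 0.0913%, 0.0357% and 0.0995%). In neurons 156 of 308 measured members were below 0 (50.6%, background 44.9%). Of these, 3 were lower by 2-fold, regions 93870, 7963 and 5080 (0.974%, background 2.18%), and 0 were higher (background 0.976%). Region 5080 was named after its values were seen.

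The share moved with depth in opposite directions in beta and alpha2 cells. Among control alpha2 cells the set took 2.92 of every 1000 detections in the shallowest of 4 equal groups by depth and 5.27 in the deepest, whose median was 12589 detections. Deficient alpha2 cells had 3.29 in the shallowest and 3.74 in the deepest group, whose median was 8994 detections. In between, the values were 3.00 and 3.22 for deficient and 3.06 and 3.35 for control alpha2 cells. The deficient library was thus higher in the shallowest alpha2 group, by intervals that did not overlap, and lower in the deepest, where the depths differed too. In neurons it was 2.32, 2.40, 2.82 and 3.33 in the deficient and 2.13, 2.02, 2.65 and 3.72 in the control library, again higher in the shallower groups and lower in the deepest. In beta1 cells the deficient library was lower in all 4 groups, at 7.89, 7.51, 6.85 and 6.68 from shallow to deep, against 8.72, 8.59, 8.67 and 7.74 in the control library. In beta2 cells it was 11.9, 11.6, 10.4 and 9.29, against 12.7, 12.2, 11.3 and 9.85. The matrix records presence only, so an open region cannot gain detections in a cell that already has it. Whether this bears on any of the changes with depth was not tested.

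**Figure D5:**
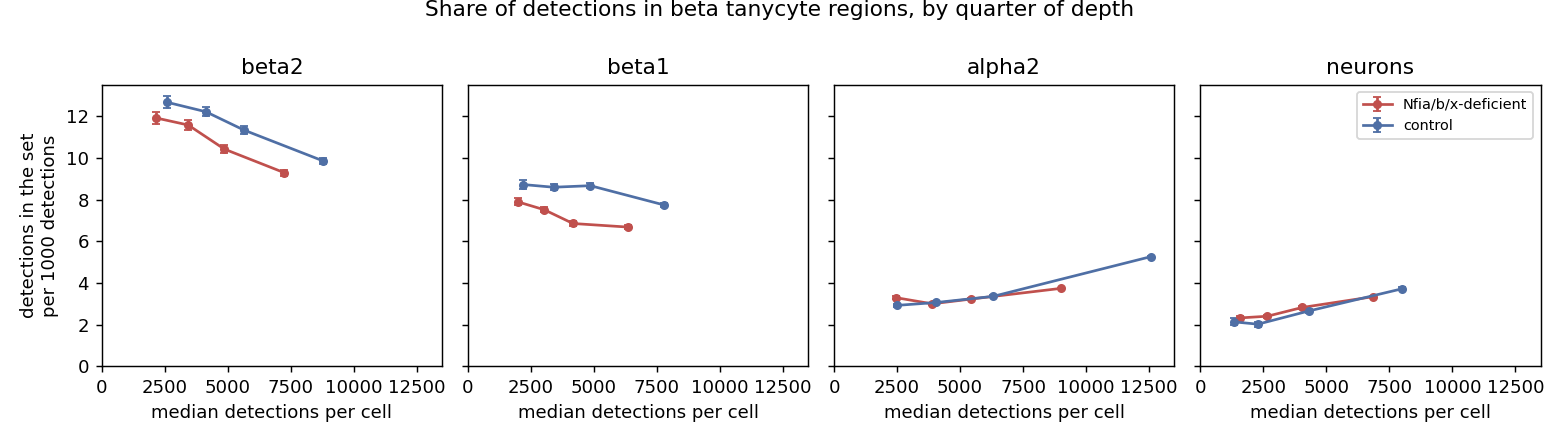
Detections in the 500 beta tanycyte regions per 1000 detections (y axis) against median detections per cell (x axis) in 4 equal groups of cells by depth, for 4 types, in deficient and control libraries, with exact 95% counting intervals. In beta2 and beta1 cells the deficient points lie below the control points, from 11.9 to 9.29 against 12.7 to 9.85 in beta2; in alpha2 cells the deficient point lies above the control point in the shallowest group, at 3.29 against 2.92, and below it in the deepest, at 3.74 against 5.27.

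Proliferating tanycytes had the lowest ratio of any type, at -0.75 (interval -0.83 to -0.66), and -0.77 at equal depth. The set took 2.30 of every 1000 detections in 1033 deficient cells and 3.86 in 63 control cells. Of 56 members measured in this type, mostly through detections in deficient cells, 40 were below 0 (71.4%, background 42.8%). By 2-fold, 7 were lower (12.5%, background 2.35%) and 1 was higher (1.79%, background 7.67%). The 1 higher, region 45264, was detected in 84 of 1033 deficient and 1 of 63 control cells and was named after its values were seen. The 7 lower members had 8 to 11 detections each in the control cells, and most members could not be measured. Whether the class holds like cells in both libraries was not tested.

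The mirrored rule gave 500 regions that were more open in alpha than in beta tanycytes, and their ratios between the libraries were nearer 0 or above it. They took 6.98 of every 1000 detections in deficient and 6.79 in control alpha2 cells, and 8.26 and 8.07 in alpha1 cells (log2 ratios 0.04 and 0.03). With median-of-ratios scaling the ratio in alpha2 cells turned to -0.03, while that of the beta regions there was -0.39. Their ratio was 0.11 in beta1 and -0.02 in beta2 cells. In proliferating tanycytes it was 0.25, at 8.34 in the deficient and 7.01 in the control library. In neurons the ratio was 0.24. The difference between the 2 region sets could not be tested with 1 library per genotype.

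Members stood near other members in the matrix more often than rows in general did. Of the 500, 13 (2.60%) stood in the row next to another member, against 0.926% of all rows, and 45 within 5 rows of one, against 4.48%. The sources used here do not say how the rows are ordered, so neighbouring rows need not be neighbours in the genome. No sequence is shown for the same reason.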

How the data were processed

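Single-cell ATAC-seq libraries were made with a droplet kit and run through Cell Ranger ATAC 1.1.0 with default parameters, per the labels' protocols. The build was mm10 and the tools Cell Ranger 3.1, Signac 0.2.5, Seurat and MACS2, per the submitters' processing notes, which give no roles. How regions were called, cells filtered and types named: not given in the sources used here.

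Presence or absence is what the authors deposited, as a list of 112651747 pairs of region and cell with no other value. The matrix names no cells, so the order of the deposited annotation was used for them. As a check, each cell was assigned to the likeliest type profile from other cells of its library: 76.3% of deficient and 81.0% of control cells got their own type, where the largest type holds 36.8% and 48.1%. The design assumed no unit beyond detections, and no test was replaced.

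Detections were summed per type and library and divided by all detections of that type. Differences of single regions used log2(level + 5) and at least 50 detections over both libraries. Intervals are Clopper-Pearson for shares and conditional binomial for ratios. Members and lists were chosen with earlier results of these data known. Regions were named by rule: the 3 highest scores, the last member and the first region outside, the 3 with the largest lean to beta1 and to beta2, the 3 highest and 3 lowest between genotypes in pooled beta cells, and the 2 highest in each of 5 other types. Others are marked as named after their values were seen. The scripts were tested on simulated data. The versions were matplotlib 3.10.9, pandas 2.3.3, scipy 1.17.1, numpy 2.4.6 and Python 3.11.15. Alternatives were another scaling, thinned, deeper or shallower cells, other minimums, pseudocounts and list sizes.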

Additional observations from a re-analysis of the deposited data

How the results depend on the processing

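The log2 ratio of the set in beta2 cells stayed within its counting interval under all 8 alternatives run, and that in beta1 cells under 6 of 8. In beta1 cells it was -0.28 with median-of-ratios scaling and -0.27 with members chosen at a pseudocount of 1, a choice that shared 332 of 500 regions. In cells thinned to 2000 detections the ratio turned to 0.075 in ependymal cells and 0.049 in neurons, and with the deepest 5% of cells left out to 0.026 in neurons, where ependymal cells had -0.01 and astrocytes -0.15; the depth groups in the results bear on this. Members lower by 2-fold in beta1 cells numbered 9 with a pseudocount of 1, 5 in thinned cells and 5 with members chosen at a pseudocount of 1. In beta2 cells they numbered 4 with a pseudocount of 1 and 1 with a minimum of 200 detections, and 1 member was higher with a pseudocount of 1. Members leaning to beta2 by 2-fold numbered 28 with a pseudocount of 1, 18 in thinned cells and 10 without the deepest cells. Regions chosen in the control library with a 2-fold gap in the deficient library numbered 14 in the results and 117 with a pseudocount of 1; those chosen in the deficient library and measured in the control library numbered 3, and 99 with a pseudocount of 1. The cause was not tested. Leaving out cells whose barcode occurs in both libraries, chosen after seeing the data, moved none of the set ratios, counts of lower members in beta cells, or counts of lean and of members open in another type past these limits; it was not run for the other results. No paired analysis was possible because each genotype had 1 library. Depth limits single regions in OPCs, astrocytes, ependymal cells and proliferating tanycytes, where 12, 18, 19 and 56 members could be measured.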
